A study of Mus musculus with 24 samples.

Results

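Aminoacyl-tRNA synthetases join each amino acid to its transfer RNA and so supply the ribosome. When uncharged transfer RNA accumulates, the kinase GCN2 (Eif2ak4) phosphorylates the initiation factor eIF2, and translation of the transcription factor ATF4 rises while most other translation falls. ATF4, often paired with a C/EBP family partner, then raises transcription of amino acid transporters, of enzymes that make asparagine and serine, and of many cytosolic synthetases. The transcripts of 35 listed genes, 20 synthetases and 15 amino acid stress genes, were followed in 3 tissues of male mice, Smc6 mutants and their controls. Smc6 encodes a subunit of the SMC5/6 complex, which acts in chromosome repair.

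Members were chosen by gene symbol in the platform's probe annotation, with no cut on a measured value, but the list itself was drawn up with the mutant minus control differences of these data already known. It matched 34 of 16593 genes with a symbol and 53 of 25697 probes, 34 probes of 19 synthetase genes and 19 probes of 15 stress genes. Mars was matched under its newer symbol Mars1, and Dars was not analysed here. The differences between mutants and controls are therefore given as a description.

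Total RNA of the tissues was hybridised to Illumina MouseRef-8 bead arrays, 24 arrays in all, with 4 mutants and 4 controls for each of 3 tissues and 1 mouse per array. All mice carried a mixed C57BL/6J, 129ola and Fvb background. Testis and spleen came from the same 8 mice at 12 weeks of age. Their mutants were marked -/- for Smc6, 2 controls were marked +/+ and 2 were marked +/-, although the genotype label calls all of these controls wildtype. Brain came from other mice at 19 weeks, labelled wildtype or SMC6 mutant, so that age, animals and tissue cannot be told apart where brain is compared with the other tissues. The kind of mutation was not given in the sources used here.

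Between 12049 and 14234 probes were detected per array. The Smc6 probe lay between 7.93 and 8.29 (log2 intensity) in testis controls and 7.96 to 8.26 in testis mutants, and its groups also overlapped in spleen and brain (limma adjusted p 1, 1 and 0.931). Defining markers matched the labelled tissues: all 9 spermatid genes with a probe were detected in testis, 8 of 9 B cell genes in spleen and all 7 oligodendrocyte genes in brain. Of the other defining markers, Pax5 was not detected in spleen, nor were Snap25, Gad2 and Nefl, 3 of 10 neuron genes, in brain. Spleen mutants 1 and 2 stood apart through pancreas transcripts. The median log2 level of 19 pancreas acinar genes was 9.58 and 8.52 in these mice, 4.47 and 4.72 in spleen mutants 3 and 4, and 4.38 to 4.50 in the spleen controls. In testis, mutant 1 had a median of 6.57 against 4.46 to 5.26 in the other 7 mice. In brain, 16 of the 19 genes were not detected on any array.

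ATF4 acts through a composite C/EBP-ATF response element, written here as TGATGNAA and searched on both strands, as was the cyclic AMP response element TGACGTCA, and no 8 letters can match both. RefSeq promoter windows of build GRCm38.p6, 250 bases before to 50 bases after a gene start, were matched for 26 of the 34 genes. The composite letters were present in 9 of these 26 genes, 5 of 12 synthetases and 4 of 14 stress genes, and in 4.51% of all 27025 genes with a window. By window, 3.97% of all 32851 held it. TGACGTCA was present in 0 of the 26 and in 2.03% of all genes. A match describes letters and not a bound site. The 6 genes with a match upstream of the start are printed because they carry a sequence feature found in members of both groups. The matching letters are in capitals, the rest of each 60-base stretch is in lower case, and each is written 5′ to 3′ on the strand of its gene.
Asns, chr6:7693210-7693269, minus strand: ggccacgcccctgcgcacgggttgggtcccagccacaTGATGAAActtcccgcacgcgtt
Chac1, chr2:119351023-119351082, plus strand: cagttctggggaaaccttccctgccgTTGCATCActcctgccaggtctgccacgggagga
Slc7a11, chr3:50443637-50443696, minus strand: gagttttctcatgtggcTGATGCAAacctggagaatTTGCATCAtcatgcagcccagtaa
Aars, chr8:111033704-111033763, plus strand: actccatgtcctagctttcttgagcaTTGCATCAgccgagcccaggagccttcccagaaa
Gars, chr6:55037941-55038000, plus strand: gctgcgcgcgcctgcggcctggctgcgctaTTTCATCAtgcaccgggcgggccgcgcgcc
Tars, chr15:11399659-11399718, minus strand: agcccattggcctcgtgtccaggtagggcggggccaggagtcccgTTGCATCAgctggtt

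The element began 23 bases before the start in Asns, 30 in Gars, 15 in Tars, 112 in Aars and 193 in Chac1. Slc7a11 had a pair of upstream matches, at 66 and 47 bases, in opposite orientations. The windows of Slc7a11 and Aars belong to a start inside the annotated gene rather than at its outermost end. In Yars, Iars and Trib3 the match lay after the start, by 3, 7 and 14 bases, and Aars had a further match 9 bases after it. Of these 9 genes, Asns, Chac1, Slc7a11, Aars, Gars, Iars and Tars had a probe that passed the detection filter. Yars was not detected on any array, and Trib3 was detected on 3 brain arrays.

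Levels in the control mice differed widely between tissues. They were compared on log2 intensities normalized over all 24 arrays, and a probe was tested when it was detected on at least 4 arrays, which 46 of the 53 member probes were. Each value is the level of 1 probe, since levels of different probes cannot be set against each other, and a change in RNA per cell and a change in the share of cells of a type cannot be told apart in these bulk tissues. The genes with no tested probe were Cars, Yars, Psph, which encodes the last enzyme of serine synthesis, and Trib3, which encodes a pseudokinase. Against spleen, testis had 9 of 29 synthetase probes higher and 15 lower, and 6 of 17 stress probes higher and 10 lower (limma adjusted p under 0.05). Of all 17735 probes tested, 33.6% were higher and 41.7% lower in that comparison. Against spleen, brain had 9 synthetase probes higher and 12 lower, and 5 stress probes in each direction, where 35.9% of all probes were higher and 38.3% lower. Against testis, brain had 14 synthetase probes higher and 8 lower, and 8 stress probes higher and 5 lower, where 44.0% of all probes were higher and 36.3% lower. Taking each gene by its brightest tested probe, testis was the lowest tissue for 10 of 17 synthetases and 7 of 13 stress genes, and for 42.6% of all 12033 genes taken in the same way.

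**Figure D1:**
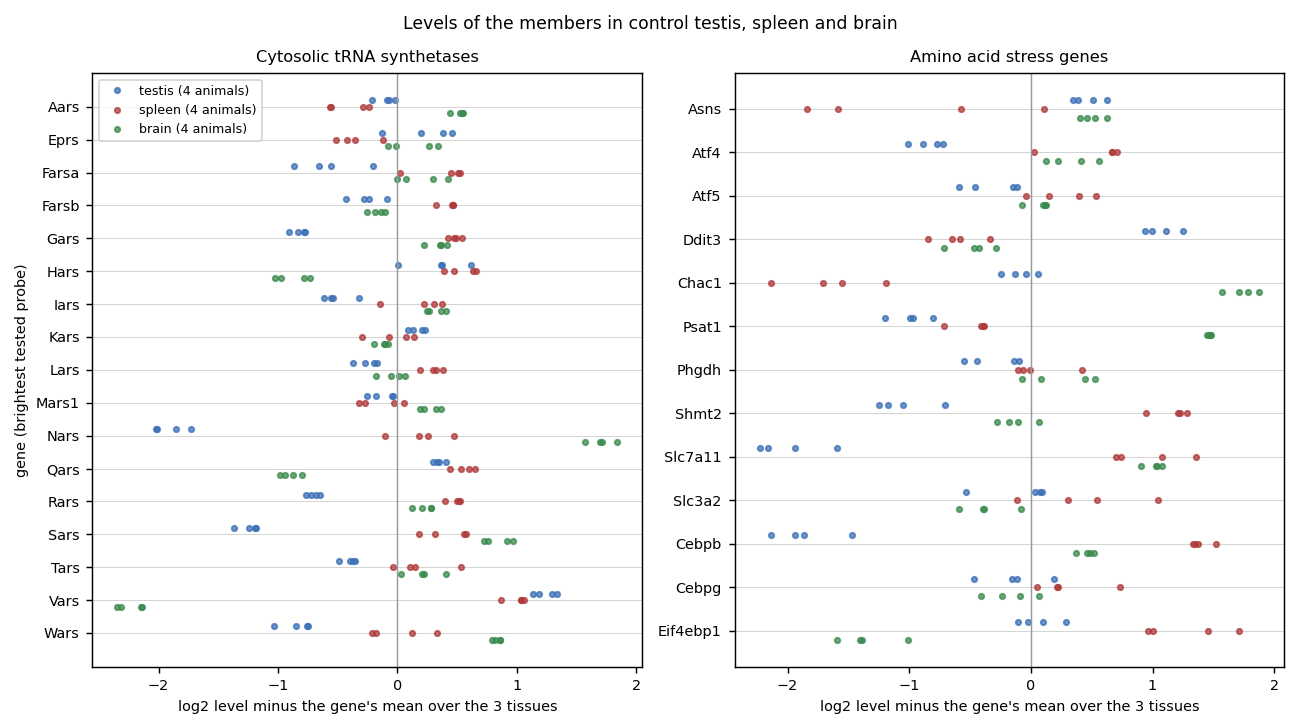
Log2 level of each gene in control testis, spleen and brain relative to the gene's own mean over the 3 tissues (x axis, log2), for 17 synthetases and 13 stress genes (y axis), by the brightest tested probe with 1 point per animal. Nars, Sars, Slc7a11 and Cebpb have their testis points far to the left, and Vars has its brain points far to the left.

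Among the synthetases, Nars, which charges asparagine, spanned the widest range from testis to brain. Its log2 levels were 5.81, 5.64, 5.93 and 5.65 in testis, 7.91, 7.56, 7.84 and 8.13 in spleen, and 9.37, 9.35, 9.50 and 9.23 in brain. The groups did not overlap. Brain was 12.2-fold above testis (95% interval 10.2 to 14.5, log2 difference 3.61, SE 0.12, limma adjusted p 3.17e-19). Vars, which charges valine, ran the other way. Its brightest probe read 10.00, 10.15, 10.05 and 10.20 in testis, 9.92, 9.73, 9.90 and 9.90 in spleen, and 6.72, 6.56, 6.73 and 6.52 in brain. Testis was 11.1-fold above brain (9.82 to 12.5, adjusted p 3.42e-22), and both other Vars probes gave the same order, with testis 7.91-fold and 7.66-fold above brain. With arrays scaled to the 75th percentile, Vars spanned the wider range, with a log2 difference of brain minus testis of -3.67 against 3.48 for Nars. Qars, which charges glutamine, was likewise lowest in brain, at 8.85 ± 0.08 (SD, n = 4) against 10.30 ± 0.09 in spleen and 10.10 ± 0.05 in testis. Hars, which charges histidine, was also lowest in brain, at 4.61 ± 0.14 with 2 of 4 control arrays detecting it, against 6.03 ± 0.13 in spleen (adjusted p 3.35e-11).

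Sars, which charges serine, rose from testis to spleen to brain by both of its probes. The brighter read 6.09 ± 0.09, 7.74 ± 0.19 and 8.18 ± 0.12 in that order, and the dimmer put brain 5.03-fold above spleen (4.27 to 5.94, adjusted p 1.86e-15) where the brighter put it 1.35-fold above (1.17 to 1.56, adjusted p 0.000402). Gars, which charges glycine, was lowest in testis, with 10.95 ± 0.06 there against 12.25 ± 0.05 in spleen and 12.11 ± 0.08 in brain. The difference between spleen and brain missed the threshold for Gars (adjusted p 0.0749), but passed it with arrays scaled to the 75th percentile (0.000633), with the deposited normalized values (0.0423) and in the mutants (0.0344), each time with brain lower. It also missed the threshold for the brightest probes of Farsa, Iars, Kars and Tars (adjusted p 0.252 to 0.864). With 75th percentile scaling, brain was called lower for Farsa (-0.41, adjusted p 0.0284) and Tars (-0.33, adjusted p 0.0369). Eprs, which charges glutamate and proline, was lowest in spleen, at 6.87 ± 0.17 against 7.45 ± 0.26 in testis and 7.35 ± 0.21 in brain (adjusted p 0.0025 and 0.0104). Its dimmer probe, detected on 2 of 4 spleen control arrays, was lower there than in testis (adjusted p 0.000862) and missed the threshold against brain (0.065). Spleen was highest past the threshold over the next tissue for Farsb, Lars, Rars and, except with arrays scaled to the 75th percentile, Qars, brain for Aars, Mars1, Nars, Sars and Wars, and testis for Vars. Kars, which charges lysine, had close levels of 8.44 ± 0.07, 8.24 ± 0.19 and 8.15 ± 0.05 in testis, spleen and brain. Its testis and brain levels differed past the threshold (adjusted p 0.0175). Testis and spleen missed it (0.0923), but testis was called higher with 75th percentile scaling (0.0261) and in the mutants (0.0222).

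For some synthetases the tissue order depended on the probe. Of 12 member genes with at least 2 tested probes, Wars was called in opposite directions by different probes in all 3 comparisons and Mars1 in both comparisons with brain. The brightest Wars probe, ILMN_1254157, rose from 7.31 ± 0.13 in testis to 8.17 ± 0.26 in spleen and 8.99 ± 0.03 in brain. Probe ILMN_3156343 of the same gene fell from 7.02 in testis to 6.36 in spleen and 6.02 in brain, 2.00-fold lower in brain than in testis (adjusted p 7.53e-08). The other two Wars probes were also higher in testis than in spleen. Wars charges tryptophan. For Mars1, which charges methionine, probe ILMN_2534090 put brain 1.32-fold above testis and probe ILMN_2828687 put it 1.34-fold below (adjusted p 0.00152 and 0.000531). Which transcripts each probe reads was not tested.

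**Figure D2:**
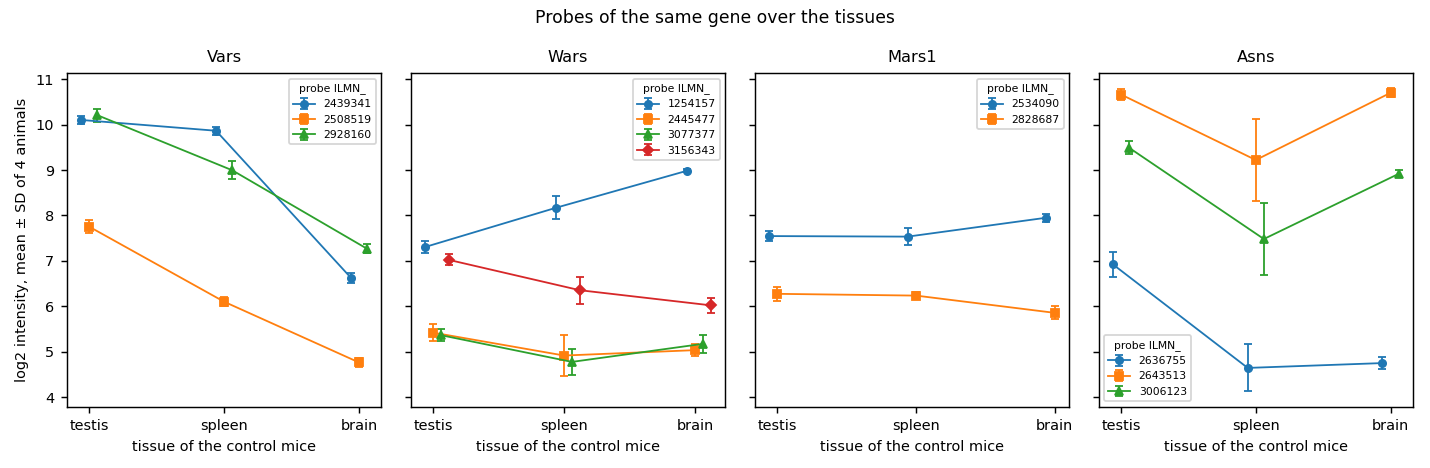
Log2 intensity (y axis) of every tested probe of Vars, Wars, Mars1 and Asns in control testis, spleen and brain (x axis), as the mean with SD over 4 animals. The lines of Vars all fall towards brain, while the brightest Wars probe rises from 7.31 to 8.99 and ILMN_3156343 falls from 7.02 to 6.02.

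The transcription factors of the stress group differed in order. Atf4 itself was lowest in testis, with 7.05, 7.29, 7.18 and 7.34, against 8.73, 8.09, 8.77 and 8.73 in spleen and 8.19, 8.47, 8.29 and 8.62 in brain. Spleen was 2.57-fold above testis (adjusted p 4.5e-09), and brain and spleen overlapped (adjusted p 0.252). Ddit3, which encodes the ATF4-induced factor CHOP, was the stress gene highest in testis. It read 9.57, 9.83, 9.69 and 9.51 there, 7.93, 7.73, 7.99 and 8.24 in spleen, and 7.86, 8.15, 8.29 and 8.10 in brain, 3.20-fold higher in testis than in spleen (2.65 to 3.86, adjusted p 1.2e-11). Its second probe had the same direction, at 2.13-fold. Cebpb, which encodes a C/EBP partner of ATF4, was 9.49-fold higher in spleen than in testis (7.82 to 11.5, adjusted p 3.06e-17), with 9.04 ± 0.09 in spleen, 8.10 ± 0.06 in brain and 5.79 ± 0.28 in testis. Atf5, a relative of Atf4, was lower in testis than in spleen (adjusted p 0.000319), and so was Cebpg, a further C/EBP partner (adjusted p 0.0416, or 0.0569 with the deposited normalized values).

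Among the enzymes and transporters, Chac1 showed the widest difference of the stress group. Chac1 degrades glutathione. It read 8.37, 8.58, 8.51 and 8.68 in brain, 6.86, 6.55, 6.76 and 6.67 in testis, and 5.25, 4.66, 5.09 and 5.61 in spleen, where 3 of 4 control arrays detected it. Brain was 10.4-fold above spleen (8.02 to 13.6, adjusted p 1.21e-14), or 9.91-fold with each spleen array floored at its lowest detected level. With arrays scaled to the 75th percentile, Cebpb had the wider log2 difference, -3.22 for testis minus spleen. That of Chac1 for brain minus spleen was then 3.02. Psat1, an aminotransferase of serine synthesis, read 10.20, 10.22, 10.22 and 10.23 in brain, 5.49-fold above testis (4.78 to 6.30, adjusted p 7.81e-18) and 3.84-fold above spleen. Phgdh, which starts serine synthesis, had smaller steps, with 5.64 ± 0.22 in testis, 6.00 ± 0.25 in spleen and 6.19 ± 0.29 in brain, and brain and spleen did not differ past the threshold (adjusted p 0.293). Shmt2, which converts serine to glycine in mitochondria, was highest in spleen at 7.19 ± 0.15, 4.63-fold above testis by its brighter probe. Its dimmer probe was detected on 1 of the 12 control arrays.

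Slc7a11, the light chain of the cystine and glutamate exchanger, read 4.69, 4.62, 5.25 and 4.91 in testis, where 2 of 4 control arrays detected it, and was at least 7.67-fold higher in brain (adjusted p 3.17e-15), with each testis array floored at its lowest detected level. Spleen and brain overlapped for it (adjusted p 0.815). Slc3a2, the heavy chain of the same exchanger, was highest in spleen (5.45 ± 0.48) and was detected on 1 of 4 control brain arrays. Eif4ebp1, a translation repressor controlled by mTORC1, fell from 8.40 ± 0.36 in spleen to 7.18 ± 0.17 in testis and 5.77 ± 0.25 in brain, 6.18-fold from spleen to brain (4.92 to 7.77, adjusted p 1.2e-13).

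Asns, which makes asparagine, was lower in spleen than in testis by all 3 probes, by 2.71-fold and 4.02-fold for the brighter ones (adjusted p 2.51e-05 and 2.77e-08). The dimmest, ILMN_2636755, was detected on 1 of 4 spleen control arrays and was lower there by at least 3.79-fold with the same floor (adjusted p 6.27e-11). Spleen controls varied most for this gene. The brightest probe read 8.35, 9.62, 8.61 and 10.30 in spleen controls 1 to 4, against 10.54, 10.70, 10.58 and 10.82 in testis and 10.59, 10.72, 10.66 and 10.82 in brain. All 3 probes ordered the 4 spleen controls alike, with control 1 lowest and control 4 highest. Their SD was 0.90 for the brightest probe, against 0.13 in testis and 0.10 in brain. The p-values of the tissue comparisons rest on 1 spread shared by all 6 groups of tissue and genotype. Testis and brain did not differ past the threshold by the brightest probe (limma adjusted p 0.903). Probe ILMN_2636755, detected on 3 of 4 brain control arrays, was 4.47-fold lower in brain than in testis with the same floor.

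The same tissue contrasts in the mutants gave the same directions. Of the synthetase probes, 24, 19 and 21 were called in the same direction in controls and mutants for testis against spleen, brain against spleen and brain against testis, and of the stress probes 15, 10 and 12, with 0 in opposite directions. Of all 17735 probes, 12538, 12284 and 13581 were called in the same direction in both, and 6, 1 and 0 in opposite directions. Scaling arrays to a common 75th percentile in place of quantile normalization moved the median difference of all probes from -0.09 to -0.39 for testis against spleen, from -0.04 to -0.61 for brain against spleen and from 0.12 to -0.25 for brain against testis. The share of called probes that were higher moved with it, from 48.4% to 30.7% for brain against spleen and from 54.8% to 43% for brain against testis. Of the member genes called by their brightest probe, Qars alone turned sign, from -0.21 to 0.02 for testis against spleen, and the median of the stress probes for brain against testis turned from 0.18 to -0.35.

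In brain, no member differed between mutants and controls past the threshold, and the 3 member probes whose groups did not overlap, of Asns, Phgdh and Wars, were higher in the mutants. Here and below, levels are log2 intensities normalized within the tissue. Probes called in brain were 0.0285% of 14027, and 0 of the 46 member probes tested were among them. Groups did not overlap for 1 of 29 synthetase probes and 2 of 17 stress probes, where 6.66% of all probes did not overlap. At an unadjusted p under 0.05 stood 3 synthetase probes and 5 stress probes, where 11.8% of all probes did. The median difference was 0.01 over the synthetase probes and 0.04 over the stress probes, against -0.01 over all probes.

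**Figure D3:**
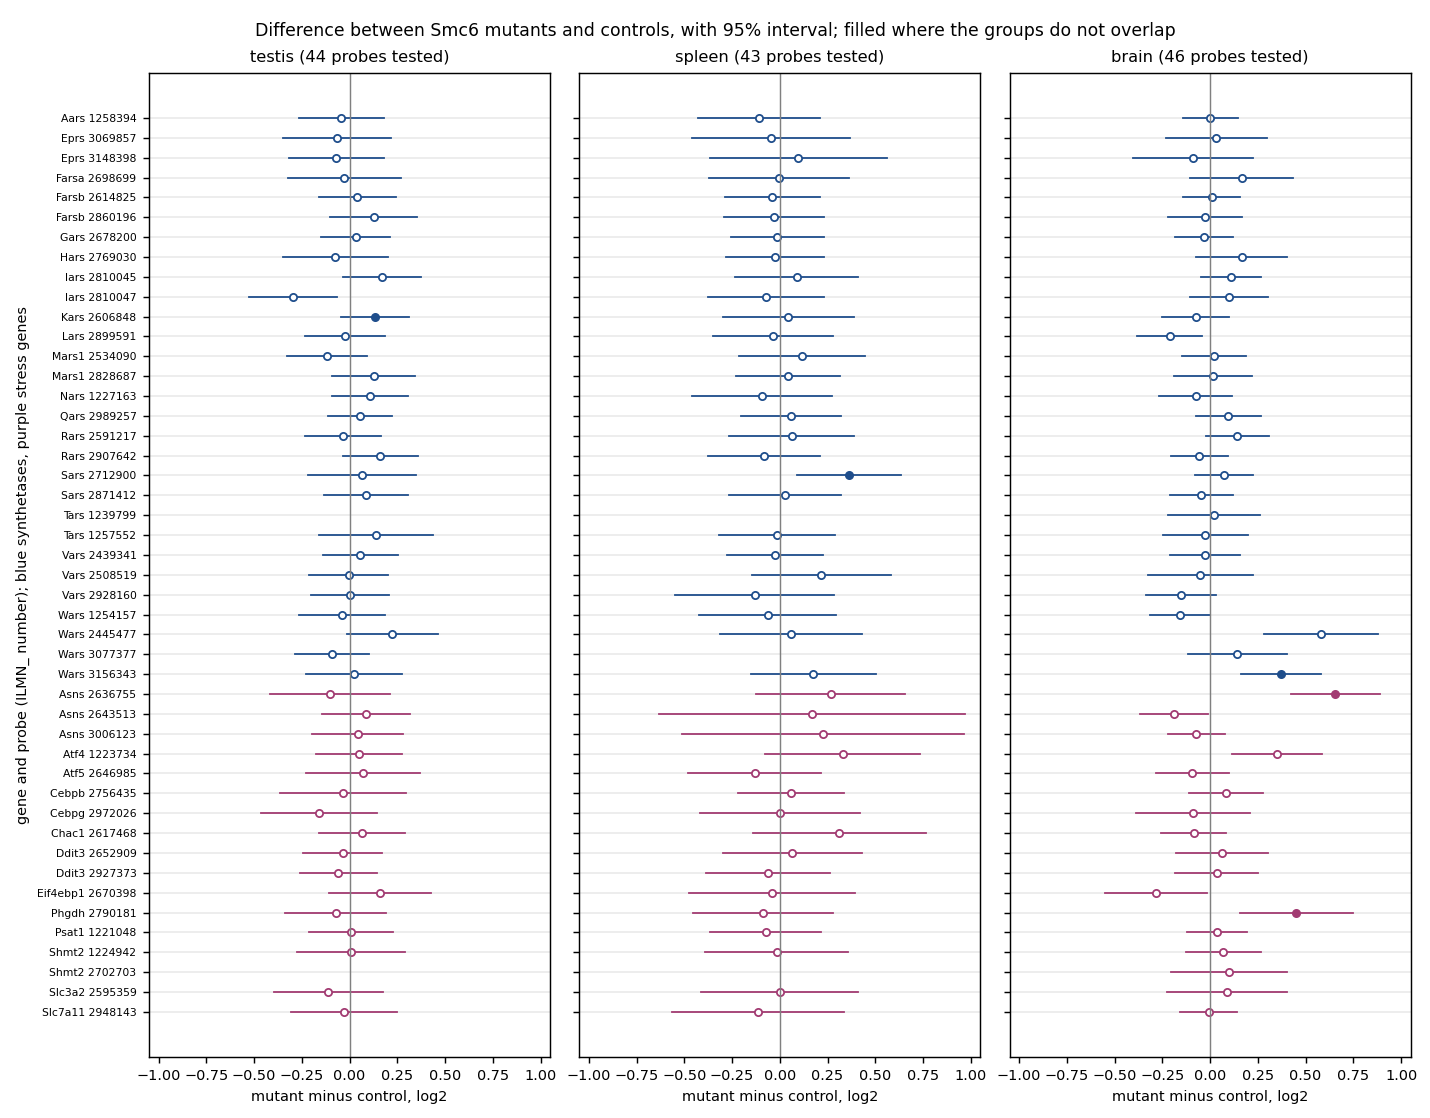
Mutant minus control difference (x axis, log2) with its 95% interval for every tested member probe (y axis) in testis, spleen and brain, filled where the 4 mutants and 4 controls do not overlap. Most intervals include 0, and the filled points are Kars in testis, Sars in spleen and Wars, Asns and Phgdh in brain.

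The smallest p in brain belonged to the dimmest of the 3 Asns probes, ILMN_2636755. Controls read 4.92, 4.99, 4.74 and 5.17 and mutants 5.81, 5.63, 5.53 and 5.49, so every mutant lay above every control. The difference was 0.66 (SE 0.11, 1.57-fold, limma adjusted p 0.0668). The brightest Asns probe, ILMN_2643513, read 10.94, 11.06, 11.00 and 11.16 in controls and 10.76, 10.78, 10.90 and 10.97 in mutants, a difference of -0.19 (SE 0.08, adjusted p 0.392) in the opposite direction. The third probe lay at -0.07. The probes of this gene thus spanned 0.84 in their differences.

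Wars showed a like split. Probe ILMN_2445477 read 5.31, 5.29, 5.16 and 5.59 in controls and 6.00, 6.22, 5.90 and 5.56 in mutants, a difference of 0.58 (SE 0.14, adjusted p 0.145), with mutant 4 inside the control range. Probe ILMN_3156343 read 6.23, 6.58, 6.53 and 6.64 in controls and 6.80, 6.94, 6.93 and 6.81 in mutants, with no overlap and a difference of 0.37 (SE 0.10, adjusted p 0.176). The brightest probe, ILMN_1254157, differed by -0.16 (SE 0.07, adjusted p 0.425), and the spread over the 4 Wars probes was 0.74. Of the other genes with several probes, the spread in brain was 0.20 for Rars and at most 0.13 for the rest.

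Phgdh read 6.50, 6.33, 6.88 and 6.97 in brain controls and 7.28, 7.09, 7.05 and 7.07 in mutants, all above the controls, with a difference of 0.45 (SE 0.13, 1.37-fold, adjusted p 0.230). Atf4 read 8.64, 8.90, 8.73 and 9.05 in controls and 9.25, 9.30, 9.21 and 8.97 in mutants, with mutant 4 inside the control range and a difference of 0.35 (SE 0.11, adjusted p 0.239). The next of the serine genes, Psat1, differed by 0.04, Chac1 by -0.09, Slc7a11 by -0.01 and Ddit3 by 0.06 and 0.03 with its 2 probes. Eif4ebp1 lay at -0.28 (SE 0.12, adjusted p 0.392), and Lars, which charges leucine, at -0.21 (SE 0.08, adjusted p 0.304). Of the 6 genes whose upstream sequence was printed, Asns differed in sign between probes, and Chac1, Slc7a11, Aars, Gars and Tars lay between -0.09 and 0.02.

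Brain mutant arrays were dimmer than brain control arrays, with an upper quartile of deposited intensity of 145 to 162 against 169 to 189. Summed marker intensities were lower in the mutants, without overlap, for the neuron, astrocyte and oligodendrocyte lists. The same held for the Sertoli list (13485 to 14914 against 15568 to 16819) and for the T cell, erythroid and plasma cell lists. Sums of the pancreas acinar, B cell, spermatid and Leydig lists overlapped. The neuron list had a median log2 level of 11.31 to 11.58 in mutants against 11.68 to 11.81 in controls, without overlap. Its summed intensity was 24524 to 28088 against 29080 to 32204, also without overlap. Of its 7 genes detected on at least 4 arrays, 3 had a mutant mean above the control mean (6 of all 10, with the undetected genes included). The summed intensity of 7 astrocyte markers was 14897 to 16640 against 18005 to 19244, with overlapping medians and 3 of 7 genes above. All 8 choroid plexus markers with a probe were detected, all 8 had a mutant mean above the control mean, and their median log2 level was 6.29 to 6.72 in mutants against 6.16 to 6.26 in controls, while their summed intensity overlapped, 11085 to 12261 against 10674 to 13861. The part of array brightness in these sums was not tested, nor was the part of these markers in the differences. With the upper quartile as a covariate the Asns difference of probe ILMN_2636755 was 0.94 (adjusted p 0.659) and that of Phgdh was 0.19 (adjusted p 0.982). The upper quartiles of mutants and controls did not overlap, so this fit cannot tell brightness and genotype apart. The adjusted p of Asns probe ILMN_2636755 was 0.0381 with arrays scaled to the 75th percentile and 0.0346 with all 24 arrays normalized together. No other member was called under the alternatives run.

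**Figure D4:**
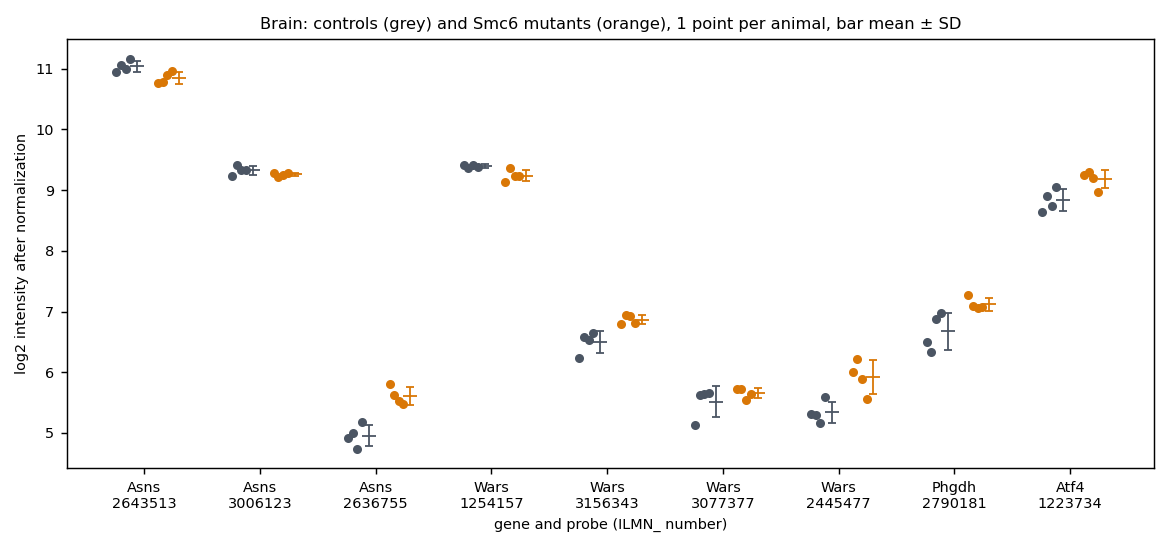
Log2 intensity after normalization within brain (y axis) for the 3 Asns probes, the 4 Wars probes, Phgdh and Atf4 (x axis), with 1 point per animal and the mean with SD, controls grey and mutants orange. Mutants lie above controls for the dim Asns probe ILMN_2636755 and for Phgdh, and below or level with them for the brightest Asns and Wars probes.

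In spleen, Sars was the member whose groups did not overlap, by 1 of its 2 probes. Probes called in spleen were 0% of 12449 by limma at an adjusted p under 0.05, with 216 at an unadjusted p under 0.05, and the 43 member probes included 1 at that unadjusted level. Groups did not overlap for 1 of 27 synthetase probes and 0 of 16 stress probes, where 1.33% of all probes did not overlap. Sars probe ILMN_2712900 read 5.06, 5.02, 5.16 and 5.01 in controls and 5.54, 5.18, 5.41 and 5.56 in mutants, all above the controls, with a difference of 0.36 (SE 0.12, 1.28-fold, limma adjusted p 1). The brighter Sars probe read 7.02, 7.27, 6.89 and 7.29 in controls and 7.00, 7.11, 7.20 and 7.26 in mutants, with a difference of 0.03 (SE 0.13). Over the 27 synthetase probes the median difference was -0.01, and over the 16 stress probes it was 0.00048.

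Atf4 in spleen read 8.11, 7.47, 8.15 and 8.11 in controls and 8.59, 8.40, 8.19 and 7.98 in mutants, a difference of 0.33 (SE 0.19, adjusted p 1). Mutants 1 and 2, the mice with pancreas transcripts, had the highest values. All 19 pancreas genes were higher on average in the mutants, 9 of them were detected on at least 4 arrays, and their summed intensity was 303 to 25497 in mutants and 254 to 417 in controls. Chac1 read 4.85, 4.50, 4.75 and 5.12 in controls and 5.70, 4.89, 4.75 and 5.13 in mutants, with mutant 1 highest. Without mutants 1 and 2 the difference was 0.12 for Atf4 and 0.13 for Chac1, while it was 0.42 for Sars probe ILMN_2712900, as large as with them. Leaving out control 2 alone gave 0.17 for Atf4, and leaving out mutant 1 alone gave 0.12 for Chac1. Asns differed by 0.17, 0.23 and 0.27 with its 3 probes, and the spread between the controls was wide (SD 0.88 for the brightest probe). Vars probe ILMN_2508519 differed by 0.22, or by 0.03 without mutants 1 and 2.

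**Figure D5:**
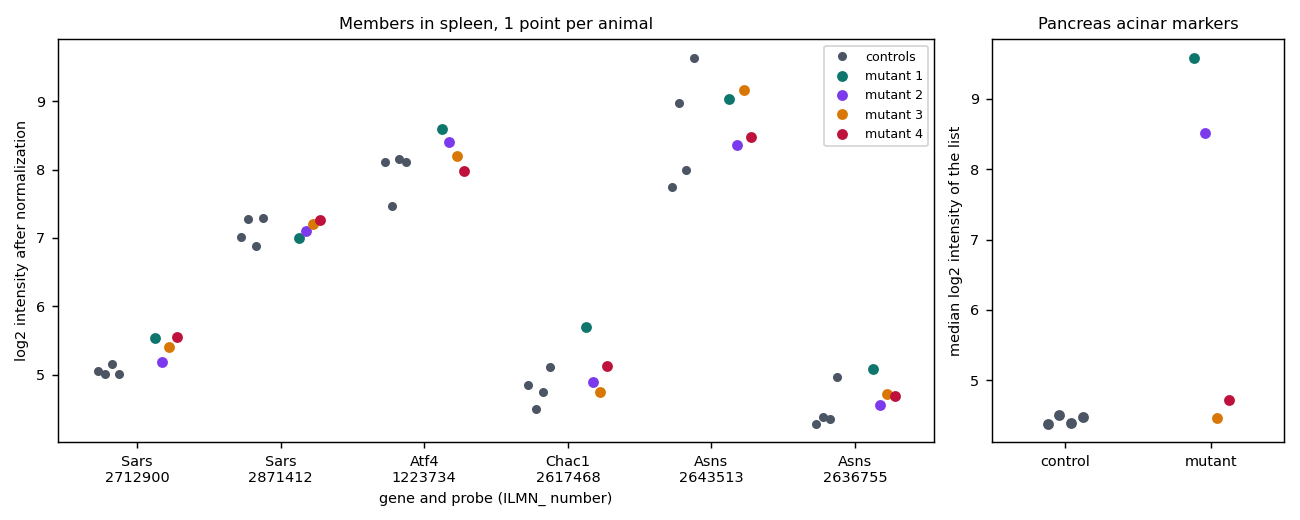
Left, log2 intensity after normalization within spleen (y axis) for Sars, Atf4, Chac1 and Asns probes (x axis) with 1 point per animal; right, the median log2 intensity of 19 pancreas acinar genes in the same mice. Mutants 1 and 2 carry the pancreas signal, and all 4 mutants lie above the controls for the dim Sars probe alone.

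In testis, the differences of the member probes lay between -0.30 and 0.22. Probes called in testis were 0% of 13152 by limma at an adjusted p under 0.05, with 629 at an unadjusted p under 0.05. Groups did not overlap for 1 of 28 synthetase probes and 0 of 16 stress probes, where 2.71% of all probes did not overlap. That probe belonged to Kars, with 8.39, 8.48, 8.51 and 8.35 in controls and 8.65, 8.53, 8.52 and 8.57 in mutants, a difference of 0.13 (SE 0.08, adjusted p 1). The smallest p belonged to Iars, which charges isoleucine. Its probe ILMN_2810047 read 6.98, 7.09, 7.17 and 6.90 in controls and 7.00, 6.59, 6.72 and 6.65 in mutants, a difference of -0.30 (SE 0.11), while its probe ILMN_2810045 differed by 0.17 (SE 0.09) in the opposite direction, both with an adjusted p of 1. Wars probe ILMN_2445477 differed by 0.22 (SE 0.11) and Rars probe ILMN_2907642, for arginine, by 0.16 (SE 0.09). The stress probes lay between -0.16 for Cebpg and 0.16 for Eif4ebp1, with a median of -0.01, and the synthetase probes had a median of 0.03. The 95% interval lay within 1.5-fold in either direction for all 28 synthetase probes and all 16 stress probes tested in testis. The same held for 12732 of all 13152 probes there. In spleen it held for 26 of 27 synthetase probes, 11 of 16 stress probes and 10272 of all 12449. In brain it held for 28 of 29, 15 of 17 and 13411 of 14027.

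Whether the difference between mutants and controls was itself different between tissues was tested on 43 member probes that entered all 3 fits, among 9482 probes. No member was called in any pair of tissues. Called were 0.0105% of all probes for spleen against testis, 0% for brain against testis and 0% for brain against spleen (limma). At an unadjusted p under 0.05 stood 0, 3 and 2 member probes, where 371, 383 and 317 of all probes did. The member with the smallest p was Asns probe ILMN_2636755, with 0.66 in brain and -0.10 in testis, 0.76 apart (SE 0.22, adjusted p 0.999). Phgdh differed between brain and spleen by 0.54 (SE 0.21) and Wars probe ILMN_2445477 by 0.53 (SE 0.21), both with an adjusted p of 0.999.

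The controls of testis and spleen mix +/+ and +/- mice, 2 of each, and these were compared with each other. No member was called in either tissue, where 0.0228% of all probes were called in testis and 0% in spleen. At an unadjusted p under 0.05 stood 3 of 44 member probes in testis and 1 of 43 in spleen, where 5.96% and 2.2% of all probes did. In testis, Slc7a11 read 4.66 and 4.60 in +/+ mice and 5.19 and 4.87 in +/- mice, and Sars probe ILMN_2712900 read 4.65 and 4.61 against 5.00 and 5.05, so that heterozygotes lay 0.40 above for each (SE 0.14 and 0.15, limma adjusted p 0.822). Phgdh differed by 0.36 in the same direction. Against +/+ controls alone, the median of the testis stress probes moved from -0.01 to 0.08.

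The rest of the pathway was read from lists of related genes, each gene by its brightest detected probe. In these lists 0 genes were called in any tissue (limma, with an adjusted p of 1 throughout testis and spleen and 0.281 or more in brain). In brain, 5 genes of these lists stood at an unadjusted p under 0.05. They were 1 of 12 mitochondrial synthetases, 3 of 14 other ATF4 targets and 1 of 13 chaperones. The scaffolds (0 of 3) and the genes upstream of ATF4 (0 of 12) had none. Of all brain probes, 11.8% stood at that level. Groups did not overlap for 6.66% of all probes in brain and 1.33% in spleen. Of the mitochondrial synthetases, 9, 10 and 12 of 17 were tested in testis, spleen and brain, with median differences of -0.01, 0.02 and -0.01. In brain Nars2 lay at -0.21 (SE 0.09, adjusted p 0.401) and Wars2 at -0.28 (SE 0.16), in spleen Rars2 at 0.26 with all mutants above the controls and Vars2 at -0.20, and in testis Iars2 at -0.18 and Sars2 at -0.16. The scaffolds of the multi-synthetase complex were all tested, and Aimp1 in brain lay at 0.15 with all mutants above the controls, Eef1e1 at -0.10 in brain and -0.31 in spleen, and Aimp2 at -0.10 in spleen and 0.04 in testis.

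Upstream of ATF4, 11, 12 and 12 of 16 genes for eIF2 kinases, eIF2 phosphatase subunits and eIF2B were tested, with medians of 0.06, -0.01 and 0.01. Ppp1r15b, which directs a phosphatase to eIF2, differed by -0.17, -0.36 and 0.15 in testis, spleen and brain, and Eif2ak3, the kinase PERK, by -0.32 in spleen. The eIF2B subunits Eif2b1 in testis and Eif2b4 in brain differed by 0.12 and -0.10. Of 22 further ATF4 targets 12, 13 and 14 were tested, with medians of -0.02, -0.03 and -0.05. In brain Ddit4, an inhibitor of mTORC1, lay at 0.32 (SE 0.12, adjusted p 0.312) with all mutants above the controls, and Slc1a4, a neutral amino acid transporter, at -0.18 (SE 0.07, adjusted p 0.337) with all mutants below them. Mthfd2, a mitochondrial folate enzyme, lay at -0.26 in both testis and spleen, Nupr1 at 0.24 in spleen and Gpt2 at 0.16 in testis. Of the endoplasmic reticulum chaperones, Dnajc3 lay at 0.22 in brain (SE 0.08, adjusted p 0.281) with all mutants above the controls and Pdia6 at 0.14, Hspa5 at -0.28 and Pdia4 at 0.28 in spleen, and Pdia4 at -0.15 and Calr at -0.19 in testis. The chaperone list had 9 of 13 genes above 0 in brain and a median of 0.07, against -0.01 over all genes. In testis and spleen its median was -0.03 and -0.04, and the part of the pancreas transcripts in Pdia4 there was not tested.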

How the data were processed

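The authors deposited 1 table of background-subtracted intensity values with a detection p-value per probe and array, per the file headers, and a table of normalized intensity values whose method is not given in the sources used here. GenomeStudio 2011.1 is named in the submitters' processing notes. No slide or scan date was given. Probe symbols came from the platform annotation.

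From the deposited intensities, neqc of limma 3.58.1 in R 4.3.3 corrected background and normalized the 8 arrays of a tissue (mutant comparisons) or all 24 (tissue comparisons). Probes detected (p under 0.05) on at least 4 arrays were fitted with lmFit and eBayes, and Benjamini-Hochberg values are over all probes tested. Differences of dim probes are compressed. The number of arrays limits the precision. Alternatives changed the normalization (the deposited normalized values, floored at 16, included), the filter, the arrays and a replicate block. The procedure was tested on simulated data.

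Members, lists and rules were chosen with earlier results of these data known. Named were all members, with full statistics for the 5 smallest p per tissue and the 5 largest tissue differences, and the 2 genes of each further list with the smallest p. Values given for other members were chosen after they were seen. P-values of the mutant comparisons measure the spread between mice within the groups of 1 tissue, moderated over probes. The tissue and interaction comparisons were fitted on all 24 arrays in 6 groups, mutants included. Their p-values rest on 1 spread per probe shared by those groups. Testis and spleen samples of 1 number come from the same animal by their identifiers, and their deviations correlated at -0.01 to 0.04 in the controls. Mutant and control numbers name no shared litter or day, and correlations of their deviations ran from -0.38 to 0.28, so they were not treated as pairs.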

Additional observations from a re-analysis of the deposited data

Results flagged for a closer look

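Among 266 groups of 4 animals, by tested member probe, tissue and genotype, 13 (4.89%) held an animal set far from the other 3 by Dixon's test, and chance flags about 1 in 20 such groups. Spleen controls accounted for most of them. Control 2 was low for Atf4 at 7.47 against 8.11 to 8.15, for Rars ILMN_2907642 at 7.99 against 8.09 to 8.11 and for Vars ILMN_2439341 at 9.09 against 9.25 to 9.27. Control 3 was low for Farsa at 4.94 and for Farsb ILMN_2614825 at 10.05. Control 4 was high for Asns ILMN_2636755 at 4.97 against 4.28 to 4.38 and low for Psat1 at 7.42 against 7.73 to 7.76. Without control 2, the spleen difference of Atf4 between mutants and controls was 0.17 in place of 0.33.

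In brain, control 1 was low for Wars ILMN_3077377 at 5.13 against 5.63 to 5.65 and for Atf5 at 8.00 against 8.17 to 8.19. Mutant 1 was high for Vars ILMN_2508519 at 5.32, and mutant 3 was low for Shmt2 ILMN_2702703 at 4.35. In testis, mutant 1 was low for Iars ILMN_2810045 at 7.78 and control 4 low for Slc3a2 at 4.47 against 4.99 to 5.05.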

How the results depend on the processing

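A value was scored as the same if it kept its direction and side of the threshold or moved by less than the spread between replicates. Counts of called probes could also move in size and still be scored so. Of 718 values recomputed under the alternatives, 709 were scored as the same. Of these, 225 were single mutant differences, and 0 of them changed sign. They covered only the member probes with the smallest p in each tissue, chosen from the same data. A change of sign was therefore unlikely from the outset, and the signs of the other members were not checked in this way. The count of member probes called in brain was 0 and became 1, Asns ILMN_2636755, with arrays scaled to the 75th percentile (0.76, adjusted p 0.0381) and with all 24 arrays normalized together (0.50, adjusted p 0.0346). The cause was not tested. The median synthetase difference in brain moved from 0.01 to -0.011 with no filter on dim probes, where more probes enter, and to 0.055 with array brightness as a covariate. The median stress difference in testis became 0.081 against +/+ controls alone, and the median synthetase difference in spleen became 0.053 without mutants 1 and 2, each with fewer samples. Member probes lower in brain than in testis numbered 13 and became 20 with 75th percentile scaling, which moved all probes. Those lower in brain than in spleen ran from 16 to 25 over the alternatives, although this count was scored as the same throughout. Leaving out 1 array at a time left 0 members called in every mutant, interaction and heterozygote comparison. It left 14 to 15 member probes higher and 22 to 25 lower in testis than in spleen, 13 to 16 and 14 to 17 in brain than in spleen, and 22 to 23 and 12 to 14 in brain than in testis. With replicate number as a fixed block, the brain difference of Asns ILMN_2636755 was 0.66 (adjusted p 0.114) and 0 members were called in any tissue. With the animal as a random block (correlation 0.0164 within tissues and 0.00913 over tissues), 0 members were called in the interaction and no tissue call counted here changed. The brain difference of Phgdh was 0.45 and became 0.19 with array brightness as a covariate. Brightness did not overlap between brain mutants and controls, so fits with this covariate cannot tell it apart from genotype. Dim probes near background carry compressed differences, which touches Asns ILMN_2636755.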
